A study of Mus musculus and Homo sapiens with 14 samples.

Results

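Oli-neu, a mouse cell line of the oligodendrocyte lineage, was compared between cultures that shared their medium with MB1 cells and cultures grown alone. The libraries were chosen by their labels: 2 of Oli-neu with MB1 and 2 of Oli-neu alone, 4 of the 14 libraries of the series. MB1 cells were derived from medulloblastomas of Atoh1-cre:SmoM2 mice at P12, so by its labels the partner is a tumour line of the same species driven by hedgehog signalling. The 2 cell types were separated by a 30 mm insert whose membrane has pores of 0.4 µm, through which soluble factors and small vesicles can pass, while whole cells stay apart. All groups were fed EGF and bFGF at 20 ng/mL each, in monoculture and co-culture alike. An insert is recorded for the co-cultures only, so the insert and the MB1 partner cannot be told apart in this comparison. A further pair of Oli-neu libraries, from cultures beside the human Group 3 medulloblastoma line D341, entered the same fit and is given beside single genes. The labels call the 2 libraries of a condition biological replicates and number them 1 and 2. Below, the libraries are named by those numbers.

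Oligodendrocyte precursor cells divide under growth factors and leave the cell cycle when they differentiate into myelinating cells. The balance is set by cell-cycle regulators of the cyclin and E2F systems, by Notch and BMP signals that hold precursors undifferentiated, and by SOX10, OLIG2 and MYRF, which drive the myelin programme. Medulloblastoma is an embryonal tumour of the cerebellum, and its sonic hedgehog type arises from granule neuron precursors. Glial cells near a tumour can receive ligands, metabolites and vesicles from it.

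Of 35288 genes listed, the 12036 with at least 1 TPM in at least 2 of the 4 libraries were tested. TPM is an abundance corrected for transcript length and scaled to the same total in each library. Pseudogenes held 36.0% and 36.6% of TPM alone and 36.3% and 37.8% with MB1, against 25.3% and 25.2% in MB1 cells alone. The line carried its expected markers in all 4 libraries. Sox10 was at 171 and 197 TPM alone and at 212 and 235 TPM with MB1, Olig2 at 64.7 and 76.0 TPM alone and 59.9 and 67.2 TPM with MB1, and the precursor receptor Pdgfra at 13.2 and 12.0 TPM alone and 13.3 and 11.9 TPM with MB1. The lineage factor Nkx2-2 and the mature myelin genes Mobp and Mal were listed at 0 in all 4. MB1 cells grown alone had Zic1, a factor of the granule neuron lineage, at 84.3 and 63.7 TPM, but the lineage's defining factor Atoh1 at 0 and 0.0143 TPM and the hedgehog target Gli1 at 0.178 and 0.129 TPM. They also had Olig1, an oligodendrocyte lineage factor, at 655 and 833 TPM, against 167 and 187 TPM in Oli-neu alone, in a table normalized apart. Markers of astrocytes summed to 9174 and 8898 TPM in MB1 cells, mostly from Vim and Fabp7, which neural precursors express too, and to 4230 and 3889 TPM in Oli-neu alone. The mean log2(TPM + 1) over that whole list, which weighs each gene alike, was also higher in MB1 cells. It was 5.88 and 5.79 there, against 3.29 and 3.22 in Oli-neu alone. Atoh1, Gli1 and Olig1 thus go against the labelled granule neuron lineage, and MB1 is used below as the label's name only.

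The sequencing kit was directional, but whether quantification used strand is not given in the sources used here. Without strand, reads from genes whose exons overlap on opposite strands cannot be told apart. Among the genes described below, such an overlap was present for Fen1, Lig1, Mcm7, Tk1, Cdk4, Jun, Junb, Dusp1, Phlda1, Hes5, Dll1, Cacna1a, Tmem63a, Styx, Zswim9, Gprc5b, Nipal3, Gpr17, Lhfpl3 and mt-Nd6, and above for Pdgfra and Olig1.

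No gene passed the threshold of an adjusted p under 0.05 (limma with Benjamini-Hochberg adjustment, 0% of genes tested). The smallest adjusted p was 0.0516, shared by Dhrs3 and Gm10985. At an unadjusted p under 0.05 there were 754 genes, 6.26% of those tested, where 602 would be reached if no gene differed. With the library number as a block, which takes out what the libraries of a number share, that count was 1319 (11%), with 345 higher (2.87%) and 974 lower (8.09%), and still none passed after adjustment. Lower values beside MB1 prevailed: 572 genes (4.75%) were lower and 182 (1.51%) higher at an unadjusted p under 0.05. The excess of lower genes depends on the scale, because with columns rescaled by the median ratio of their genes the split was 369 lower and 338 higher. The differences described below are therefore given as levels and directions, not as changes past the test.

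The library numbers separated the samples on the leading component. Over the 6 Oli-neu libraries, principal component 1 carried 55.4% of the variance and split number 1 from number 2 in every condition. Between single libraries, the median absolute difference on the log2(TPM + 1) scale was 0.16 between the 2 monocultures and 0.21 between the 2 co-cultures. Between conditions it was 0.17 within number 1 and 0.17 within number 2, so a typical gene differed by about as much between conditions as between libraries of a condition. In the fit with the block, 487 genes (4.05%) differed between the numbers at an adjusted p under 0.05 (limma). Within number 1 the median fold change over all genes was -0.01 on that log2 scale, and within number 2 it was -0.11. Across genes, which are not independent replicates, the fold changes within the 2 numbers had a Pearson r of 0.153 and a Spearman rho of 0.227. The direction was the same within both numbers for 6865 genes (57%). Of 406 genes that differed by at least 0.5 within each number, 281 did so in the same direction, 95 of them higher and 186 lower beside MB1.

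**Figure D1:**
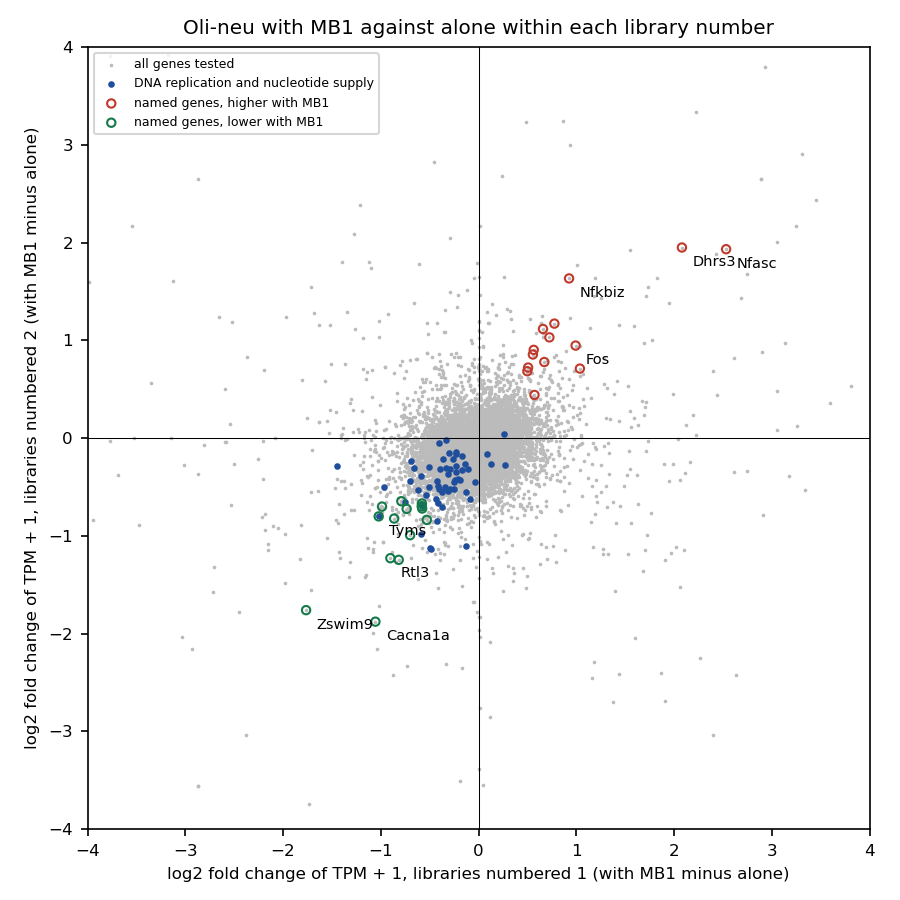
Log2 fold change of TPM + 1, Oli-neu with MB1 minus alone, within the libraries numbered 1 (horizontal axis) and within those numbered 2 (vertical axis). Grey points are the 12036 genes tested, blue points are members of the DNA replication and nucleotide supply lists, open circles are the named genes, and 20 genes lie outside the axes at 4. Most blue points lie below 0 on both axes, Dhrs3 and Nfasc lie at the upper right, and the grey cloud shows little common slope.

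DNA replication genes were lower beside MB1, as a group and within both library numbers. Of 40 tested genes of the replication machinery, 39 had a lower mean (62.8% of all genes did), and 29 were lower without overlap, meaning that each co-culture library had less than either monoculture library, as did 24.2% of all genes. At an unadjusted p under 0.05, 18 were lower and 0 higher, against 4.75% and 1.51% of all genes. The list's median fold change was -0.41 on the log2(TPM + 1) scale, -0.33 within number 1 and -0.45 within number 2, against -0.06 for all genes. It lay between -0.47 and -0.29 over all alternative settings. Beside D341, against the same monocultures, the list's median was -0.30, and the direct difference of MB1 from D341 co-culture had a median of -0.05. In a bulk library, fewer cycling cells and less of these transcripts per cell cannot be told apart.

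The promoters of 5 genes, from RefSeq on GRCm38.p6, are printed to show how motif letters vary among the replication and nucleotide supply genes. Tyms, Fen1 and Dut had the smallest p of the 2 lists among genes with a promoter in the table, and Mcm3 and Mcm6 were added because they hold matches. Each window runs from 250 bases before the transcription start to 50 bases after it, 5′ to 3′ on the gene's strand. Capitals mark matches to TTGGCGC, to the related TTCCCGC and to the related TTCGCGC, which are letters of the E2F binding consensus, read on both strands with overlapping matches joined. The motifs and the genes were chosen with the expression values known. Mcm3 lies at chr1:20820263-20820562, Mcm6 at chr1:128359656-128359955, Fen1 at chr19:10203872-10204171 and Tyms, a nucleotide supply gene, at chr5:30073576-30073875, all on the minus strand. Dut, another nucleotide supply gene, lies at chr2:125247265-125247564 on the plus strand.
Mcm3: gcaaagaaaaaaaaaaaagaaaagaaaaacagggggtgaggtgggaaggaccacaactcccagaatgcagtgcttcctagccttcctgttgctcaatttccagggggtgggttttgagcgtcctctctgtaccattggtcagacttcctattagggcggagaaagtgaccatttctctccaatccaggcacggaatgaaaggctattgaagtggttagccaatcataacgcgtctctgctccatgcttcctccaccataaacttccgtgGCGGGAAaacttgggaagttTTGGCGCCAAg
Mcm6: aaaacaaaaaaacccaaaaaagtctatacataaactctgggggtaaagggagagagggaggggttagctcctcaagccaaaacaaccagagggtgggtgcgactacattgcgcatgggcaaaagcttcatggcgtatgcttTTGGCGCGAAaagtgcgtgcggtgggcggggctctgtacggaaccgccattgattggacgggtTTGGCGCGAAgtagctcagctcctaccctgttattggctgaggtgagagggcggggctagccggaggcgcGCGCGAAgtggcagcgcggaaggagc
Fen1: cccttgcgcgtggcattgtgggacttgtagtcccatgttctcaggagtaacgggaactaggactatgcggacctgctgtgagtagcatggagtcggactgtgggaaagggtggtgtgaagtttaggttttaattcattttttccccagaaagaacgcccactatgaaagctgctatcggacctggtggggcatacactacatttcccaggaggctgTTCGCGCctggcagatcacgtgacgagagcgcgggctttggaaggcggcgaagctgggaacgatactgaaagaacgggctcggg
Tyms: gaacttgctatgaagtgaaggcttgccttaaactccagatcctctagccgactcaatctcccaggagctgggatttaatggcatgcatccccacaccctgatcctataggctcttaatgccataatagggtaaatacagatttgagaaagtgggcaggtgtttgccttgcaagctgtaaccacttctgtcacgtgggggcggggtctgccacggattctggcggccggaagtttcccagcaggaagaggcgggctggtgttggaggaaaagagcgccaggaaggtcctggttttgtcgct
Dut: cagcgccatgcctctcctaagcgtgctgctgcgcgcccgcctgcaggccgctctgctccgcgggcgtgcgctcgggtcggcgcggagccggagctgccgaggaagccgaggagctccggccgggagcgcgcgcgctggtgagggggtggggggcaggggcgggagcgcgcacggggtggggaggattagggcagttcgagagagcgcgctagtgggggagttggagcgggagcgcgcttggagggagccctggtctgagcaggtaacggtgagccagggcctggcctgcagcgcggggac
Mcm3 held 3 matches, Mcm6 held 5, the printed start of Fen1 held 1, and Tyms and Dut held 0. Another start of Fen1 held 0, and the start with the most matches was the one printed. The Dut window begins after the gene's first base in GENCODE (chr2:125247190), so bases before that start were not read. Among genes with a promoter in the table, 23 of 33 replication genes had at least 1 match (69.7%), as did 7 of 17 nucleotide supply genes (41.2%) and 5 of 29 mitosis genes (17.2%). Over all 27025 genes in the promoter table the share was 9.20%, and over all 32851 windows 8.07%. Of the other 27 lists with promoters in the table, 22 also exceeded the share over all genes, with a range from 0% to 41.2%. The highest of them was that of G1 cyclins, kinases and inhibitors, and immediate early genes, described below for higher values, had 6 of 26 (23.1%). The 23 replication genes with a match had a median fold change of -0.46, the 10 without a match -0.31, and the 7 without a promoter in the table -0.34. A match is only a stretch of letters, and binding was not measured.

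The replicative helicase genes Mcm3, Mcm6 and Mcm7 were lower in both co-culture libraries. Mcm3 was at 36.3 and 43.0 TPM alone and at 26.9 and 26.8 TPM with MB1, a log2 fold change of -0.54 (SE 0.12). Mcm6 was at 19.8 and 17.4 TPM alone and at 13.3 and 11.3 TPM with MB1. Mcm7 was at 35.7 and 37.7 TPM alone and at 23.3 and 28.7 TPM with MB1. In each of the 3 the groups did not overlap. The spread was wider for Mcm2, at 23.3 and 14.3 TPM alone and 7.91 and 11.6 TPM with MB1.

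Genes acting at the fork and on its products showed the same order of libraries. Pcna, the sliding clamp, was at 45.1 and 57.5 TPM alone and at 33.4 and 31.5 TPM with MB1. Fen1, the flap nuclease that trims Okazaki fragments, was at 8.97 and 10.1 TPM alone and at 5.67 and 5.96 TPM with MB1. Lig1, the ligase that joins them, was at 27.2 and 28.2 TPM alone and at 16.3 and 20.5 TPM with MB1. Chaf1b, a subunit of the chaperone that puts histones onto new DNA, was at 8.48 and 7.95 TPM alone and at 3.83 and 5.34 TPM with MB1. No co-culture library reached a monoculture library in any of the 4, and Fen1 was chosen for that. The clamp loader subunit Rfc1 was the only member with both co-culture libraries above, at 17.4 and 14.7 TPM against 14.3 and 14.3 TPM alone.

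Genes that supply deoxynucleotides were lower to a similar degree. All 18 tested members had a lower mean (62.8% of all genes did). Of these, 15 were lower without overlap (83.3%, against 24.2% of all genes), and 9 were lower at an unadjusted p under 0.05 (50%, against 4.75%). The median fold change was -0.34, -0.36 within number 1 and -0.33 within number 2. It was -0.41 beside D341 against the same monocultures, with a median of -0.01 for MB1 minus D341 co-culture. Tyms, thymidylate synthase, was at 13.0 and 12.4 TPM alone and at 5.88 and 6.71 TPM with MB1, a log2 fold change of -0.91 (SE 0.11, limma adjusted p = 0.372). Tk1, the salvage thymidine kinase, was at 23.0 and 25.3 TPM alone and at 13.2 and 15.7 TPM with MB1. Dut, which removes dUTP, was at 29.1 and 32.2 TPM alone and at 19.1 and 19.5 TPM with MB1. The ribonucleotide reductase subunit Rrm1 was at 56.5 and 56.2 TPM alone and at 42.0 and 39.8 TPM with MB1. These 4 genes were lower by amounts larger than the difference between libraries of a group.

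Regulators that precede S phase had a smaller median. Of 21 tested G1 cyclins, kinases and inhibitors, 12 were lower without overlap (57.1%, against 24.2% of all genes) and 0 higher (against 10.1%). At an unadjusted p under 0.05, 3 were lower (14.3%, against 4.75%) and 0 higher, and the median was -0.18. Beside D341 the median was -0.13, and for MB1 minus D341 co-culture it was -0.0036. Ccne1, the cyclin that activates CDK2 at S phase entry, was at 1.48 and 1.31 TPM alone and at 0.532 and 0.575 TPM with MB1. E2f1, an activator of S phase genes, was at 3.72 and 4.19 TPM alone and at 2.72 and 2.69 TPM with MB1. Cdk4, the partner of the D cyclins, was at 487 and 459 TPM alone and at 401 and 385 TPM with MB1. The inhibitor Cdkn1b overlapped between the groups, at 75.2 and 90.7 TPM alone and 97.6 and 90.2 TPM with MB1.

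Mitotic genes followed only in part. Of 35 tested, 34 had a lower mean (62.8% of all genes did), and 18 were lower without overlap (51.4%, against 24.2% of all genes). At an unadjusted p under 0.05, 10 were lower (28.6%, against 4.75%). The median was -0.32 over the 4 libraries, -0.13 within number 1 and -0.48 within number 2. It was -0.10 without co-culture library 2 and -0.52 without co-culture library 1, so its size rests on which co-culture library is read. Beside D341 it was -0.28, and -0.07 for MB1 minus D341 co-culture. Birc5, survivin, was at 50.4 and 48.1 TPM alone and at 33.5 and 28.8 TPM with MB1. Cdk1, the kinase that starts mitosis, was at 188 and 183 TPM alone and at 152 and 128 TPM with MB1. Esco2, which acetylates cohesin during S phase, was at 6.23 and 6.61 TPM alone and at 4.01 and 3.26 TPM with MB1. The groups did not overlap in the 3 genes, and Birc5 and Esco2 were chosen for that.

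**Figure D2:**
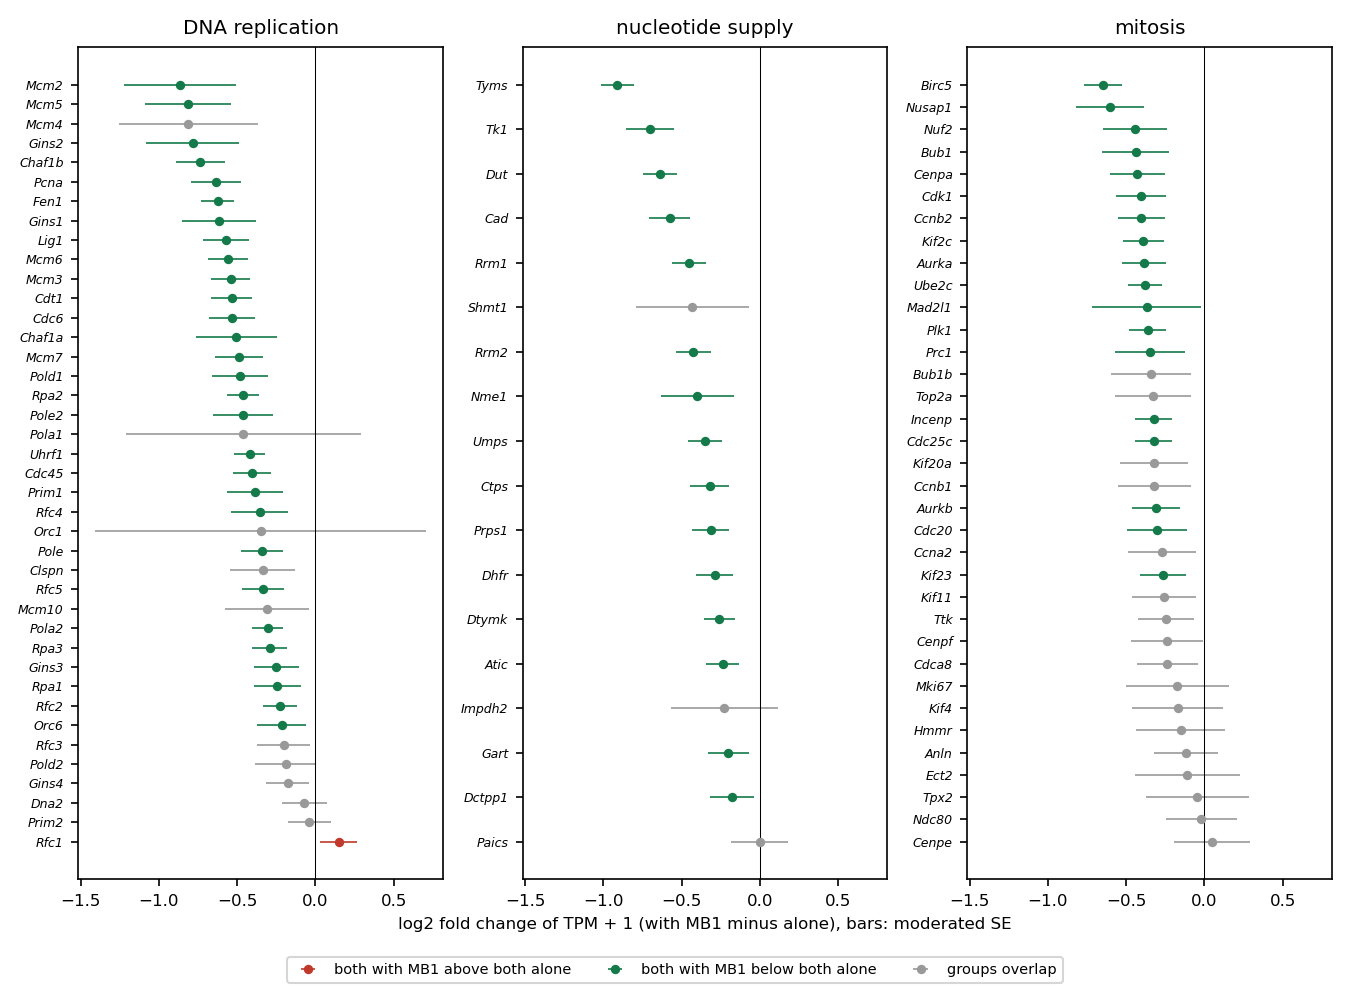
Log2 fold change of TPM + 1, Oli-neu with MB1 minus alone, for each tested member of the DNA replication (40 genes), nucleotide supply (18) and mitosis (35) lists. Bars are the moderated SE from limma, and colour gives whether both co-culture libraries lay above, below or among the monoculture libraries. Nearly all points lie left of 0, and Rfc1 is the only member with both co-culture libraries above.

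Targets of MYC and ribosome biogenesis genes were also lower on average, with a median of -0.22 over 30 tested genes. In 12 (40%) both co-culture libraries were below, against 24.2% of all genes, and in 0 above, against 10.1%. At an unadjusted p under 0.05, 2 were lower (6.67%), near the 4.75% of all genes, and with the block 5 were, where 8.09% of all genes were. Beside D341 the list's median was -0.31, and for MB1 minus D341 co-culture it was 0.07. Myc itself overlapped, at 68.0 and 56.1 TPM alone and 54.8 and 57.4 TPM with MB1. Of 17 tested targets of p53, whose products restrain division, 14 overlapped between the groups. Of the rest, 1 was higher and 2 were lower (5.88% and 11.8%, against 10.1% and 24.2% of all genes).

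Immediate early genes, transcribed within minutes of a growth signal, stood on the other side. Of 33 tested immediate early and ERK feedback genes, 17 had both co-culture libraries above both monoculture libraries, against 10.1% of all genes, and 3 had both below, against 24.2%. At an unadjusted p under 0.05, 7 were higher (21.2%, against 1.51% of all genes) and 2 lower (6.06%, against 4.75%). The median was 0.12, with 0.10 within each number, and lay between 0.07 and 0.17 over the alternative settings. Beside D341 the median was -0.06, and for MB1 minus D341 co-culture it was 0.18. The 17 genes were the AP-1 subunits Fos, Jun and Junb, the EGR factors Egr1 and Egr3, the phosphatases Dusp1, Dusp4 and Dusp6, the feedback inhibitors Spry2, Spry4 and Spred2, the ETS factors Etv4 and Etv5, and Ier3, Klf6, Nr4a1 and Phlda1.

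Fos, the AP-1 subunit, was at 36.2 and 41.4 TPM alone and at 73.1 and 80.6 TPM with MB1, a log2 fold change of 0.97 (SE 0.12, limma adjusted p = 0.408). Its partner Jun was at 27.8 and 27.0 TPM alone and at 37.6 and 36.4 TPM with MB1. Junb was at 10.3 and 12.5 TPM alone and at 16.04 and 27.4 TPM with MB1, so the co-culture libraries differed widely from each other. The same order held for an EGR factor and for phosphatases. Egr1 was at 39.1 and 45.6 TPM alone and at 56.5 and 64.6 TPM with MB1. The phosphatase Dusp1 was at 10.05 and 11.4 TPM alone and at 14.9 and 17.6 TPM with MB1. The ERK-specific phosphatase Dusp6 was at 59.6 and 60.8 TPM alone and at 75.6 and 73.6 TPM with MB1. In all 6 genes, drawn from those listed above for it, the groups were apart. The antiproliferative gene Btg2 went the other way, at 2.20 and 2.06 TPM alone and 1.07 and 1.44 TPM with MB1. Beside D341, Egr1 was at 39.4 and 38.2 TPM and Dusp6 at 50.3 and 53.04 TPM, within or below the monoculture range, while Fos was at 60.5 and 59.0 TPM.

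Dhrs3 was the second gene by p in the comparison, after the predicted gene Gm10985, whose adjusted p it shared. It encodes a reductase that turns retinaldehyde back into retinol and is itself induced by retinoic acid. Dhrs3 (chr4:144892827-144928209, GRCm38) was at 1.85 and 1.84 TPM alone and at 11.04 and 9.98 TPM with MB1. The log2 fold change was 2.01 (SE 0.11, limma adjusted p = 0.0516), 2.08 within number 1 and 1.95 within number 2. With D341 the gene was at 9.31 and 8.17 TPM, and MB1 cells alone, in a table normalized apart, had 0.889 and 0.541 TPM. The adjusted p passed 0.05 under several alternatives, such as 0.0255 with median-ratio scaling and 0.0103 with protein-coding genes alone. None of the other 13 tested genes of retinoid metabolism and reception reached an unadjusted p under 0.05, and the list's median was -0.02, or 0.03 with median-ratio scaling.

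Between the partners, MB1 and D341, no gene passed an adjusted p under 0.05 (limma, 0% of genes tested), and 607 (5.04%) had an unadjusted p under 0.05. Nfasc had the widest gap between partners among the named genes. It encodes neurofascin, an adhesion molecule of nodes and paranodes of myelinated axons. Nfasc (chr1:132564690-132741797, GRCm38) was at 1.07 and 0.847 TPM alone, at 10.96 and 6.05 TPM with MB1 and at 0.775 and 0.541 TPM with D341. Against alone the log2 fold change was 2.23 (SE 0.27, limma adjusted p = 0.408), and against D341 co-culture it was 2.47 (SE 0.27, limma adjusted p = 0.369). MB1 cells alone had 15.3 and 2.76 TPM, so the partner cells expressed the gene too.

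Transcripts carried over from MB1 cells were measured with 15 genes that had at least 50 TPM in both MB1 monocultures and under 0.1 TPM in both Oli-neu monocultures. Summed, they reached 6031 and 5755 TPM in MB1, 0.0923 and 0.472 TPM in Oli-neu alone, 0.0719 and 3.36 TPM with MB1, and 0.348 and 0.430 TPM with D341. The processed pseudogene Gm10359 made up 2721 and 2502 TPM of the MB1 sums and was listed at 0 in all 6 Oli-neu libraries. Over the other 14 genes, the sum was 0.00219% and 0.102% of the MB1 level in the co-culture libraries numbered 1 and 2, or 0.00122% and 0.0570% with Gm10359. In co-culture library 2, single genes of the 14 were at 0.0301% to 0.299% of their MB1 level, with a median of 0.114%. Co-culture library 2 was the only Oli-neu library with a sum above 1 TPM, and Mt2 alone was at 1.66 TPM there. The choice of genes held both monoculture sums near 0, so the monocultures are not a fair comparison. Their part in single genes beyond these sums was not tested.

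Other genes named for higher values beside MB1 belonged to signalling, complement and matrix. Wnt4, a secreted Wnt ligand, was at 4.50 and 4.66 TPM alone and at 7.76 and 8.70 TPM with MB1. Col18a1, a basement membrane collagen, was at 3.16 and 2.88 TPM alone and at 6.13 and 7.72 TPM with MB1. C4b, a complement component, was at 41.8 and 37.3 TPM alone and at 69.7 and 77.3 TPM with MB1. All 3 were also above monoculture beside D341, at 8.07 and 8.60, 5.46 and 5.72, and 89.5 and 77.2 TPM, in a comparison that shares the monoculture libraries. The next genes are tied to inflammation or to the amyloid precursor protein. Nfkbiz, a nuclear regulator of NF-kB targets, was at 21.3 and 14.5 TPM alone and at 41.3 and 47.2 TPM with MB1. Lbp, which binds lipopolysaccharide, was at 2.66 and 3.81 TPM alone and at 6.50 and 6.86 TPM with MB1, and was listed at 0 in MB1 cells. Beside D341, Nfkbiz was at 40.8 and 35.2 TPM and Lbp at 6.50 and 6.52 TPM. Apbb2, an adaptor of the amyloid precursor protein, was at 3.63 and 2.89 TPM alone, 5.85 and 6.27 TPM with MB1 and 2.73 and 3.09 TPM with D341. The direct difference of Apbb2 between the partners was 0.85 (SE 0.13, limma adjusted p = 0.830).

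The remaining genes named as higher differed in function and in starting level. Foxp1, a forkhead factor, was at 16.6 and 15.6 TPM alone and at 24.9 and 29.0 TPM with MB1. Agt, angiotensinogen, was at 9.07 and 6.32 TPM alone and at 14.9 and 14.9 TPM with MB1, and MB1 cells had 58.2 and 67.2 TPM. Plekhb1, a pleckstrin homology protein, was at 130 and 122 TPM alone and at 184 and 196 TPM with MB1. Overlapping genes were also among them. Gprc5b, an orphan receptor, was at 10.3 and 10.6 TPM alone and at 15.8 and 14.7 TPM with MB1. The exons of Gprc5b overlap those of Iqck on the other strand, and those of Nipal3, at 6.48 and 5.43 TPM alone and 9.63 and 9.60 TPM with MB1, overlap Stpg1. Beside D341, 12 of the 14 genes named as higher were also above both monocultures, in a comparison that shares those libraries. There, Foxp1 was at 24.8 and 21.3 TPM, Agt at 14.5 and 13.4 TPM and Plekhb1 at 153 and 164 TPM. Between MB1 and D341 co-culture, 5 of the 14 had an unadjusted p under 0.05 (limma), as did 5.04% of all genes. These genes were named by their MB1 co-culture and monoculture values, so neither count is a fair comparison. For the count of 12, the share over all genes was not taken.

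Among the named genes lower beside MB1, Zswim9 (chr7:13258967-13278721) differed most. It was at 8.77 and 10.2 TPM alone and at 1.88 and 2.31 TPM with MB1, a log2 fold change of -1.76 (SE 0.14, limma adjusted p = 0.143). With D341 it was at 2.02 and 1.72 TPM. Its exons overlap those of Lig1 on the other strand, and Lig1 was itself lower. Rtl3, derived from a retrotransposon Gag gene, was at 10.9 and 12.2 TPM alone and at 5.36 and 4.61 TPM with MB1. Anp32e, a chaperone that removes the histone variant H2A.Z, was at 75.2 and 64.9 TPM alone and at 37.4 and 39.5 TPM with MB1. A pair of channel genes was also lower. Cacna1a, the pore subunit of P/Q-type calcium channels, was at 8.30 and 14.3 TPM alone and at 3.47 and 3.17 TPM with MB1. Tmem63a, a stretch-activated ion channel, was at 10.2 and 10.6 TPM alone and at 5.13 and 5.55 TPM with MB1. Styx, a catalytically inactive phosphatase relative, was at 6.70 and 5.49 TPM alone and at 3.45 and 3.15 TPM with MB1. Pdlim1, a cytoskeletal adaptor, was at 10.6 and 11.5 TPM alone and at 5.61 and 4.26 TPM with MB1. Each of these was lower in both MB1 co-culture libraries than in either monoculture library, as the naming rule required. Beside D341, 13 of the 14 genes named as lower were also below both monocultures, in a comparison that shares those libraries. There, Rtl3 was at 3.52 and 3.13 TPM, Anp32e at 44.1 and 40.4 TPM and Cacna1a at 7.48 and 6.81 TPM. Between MB1 and D341 co-culture, 4 of the 14 had an unadjusted p under 0.05 (limma), as did 5.04% of all genes. Here too the naming used the MB1 co-culture and monoculture values, so neither count is a fair comparison. For the count of 13, the share over all genes was not taken.

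**Figure D3:**
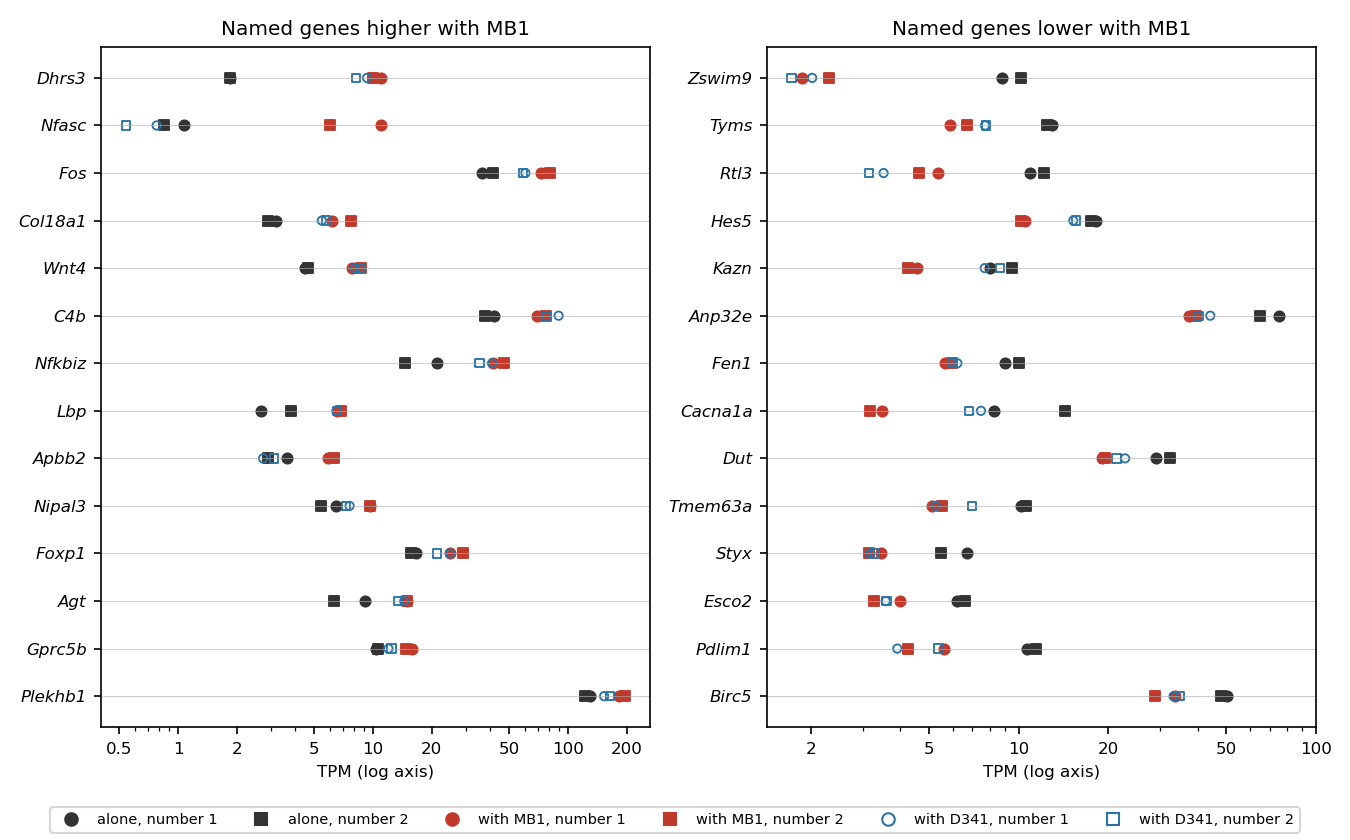
TPM (log axis) in each Oli-neu library for the 14 genes named as higher (left) and the 14 named as lower (right) beside MB1. Filled black symbols are monocultures, filled red symbols co-cultures with MB1 and open blue symbols co-cultures with D341, with circles for number 1 and squares for number 2. Red symbols lie clear of black ones in every row, as the naming rule requires. For Nfasc, Apbb2 and Kazn the blue symbols lie with the black ones, and for Dhrs3 and Zswim9 they lie with the red ones.

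The Notch pathway holds precursors undifferentiated. Of 18 tested members, 6 were lower without overlap (33.3%, against 24.2% of all genes) and 2 higher (11.1%, against 10.1%), shares near those over all genes. At an unadjusted p under 0.05, 3 were lower (16.7%, against 4.75% of all genes) and 1 higher (5.56%, against 1.51%). These are Hes5, Hes6, Dll1 and Hey2, described next. The median was -0.09, against -0.06 for all genes, with 0.05 within number 1 and -0.16 within number 2. Hes5, a target that represses differentiation, was at 18.2 and 17.5 TPM alone, at 10.5 and 10.2 TPM with MB1 and at 15.3 and 15.6 TPM with D341. The difference from alone was -0.73 (SE 0.10, limma adjusted p = 0.408), and from D341 co-culture -0.54 (SE 0.10, limma adjusted p = 0.830). Hes6, a related factor, was at 66.1 and 75.0 TPM alone and at 42.0 and 53.7 TPM with MB1. The ligand Dll1 was at 4.09 and 5.44 TPM alone and at 3.07 and 2.82 TPM with MB1. Hey2, another target, was at 7.06 and 6.96 TPM alone and at 10.3 and 9.20 TPM with MB1. Kazn, a kazrin scaffold gene outside that pathway, had a pattern like that of Hes5: 8.00 and 9.47 TPM alone, 4.54 and 4.26 TPM with MB1, and 7.70 and 8.65 TPM with D341.

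BMP and TGF-beta targets gave a mixed picture. Mgp, a secreted inhibitor of calcification that binds BMPs, was at 1057 and 653 TPM alone, at 2395 and 1787 TPM with MB1 and at 4182 and 3064 TPM with D341. Its log2 fold change beside MB1 was 1.32 (limma adjusted p = 0.693, or 0.209 with the block), and MB1 cells alone had 1.37 and 0.254 TPM. Id1, a direct BMP target that restrains differentiation, was at 31.7 and 29.4 TPM alone, at 21.0 and 25.5 TPM with MB1 and at 52.3 and 52.9 TPM with D341. Id1 thus lay below monoculture beside MB1 and above it beside D341. The 16 tested members had a median of 0.06, with 5 higher without overlap (31.2%, against 10.1% of all genes) and 1 lower (6.25%, against 24.2%). With an unadjusted p under 0.05, 1 was higher and 1 lower (6.25% each, against 1.51% and 4.75% of all genes).

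Oligodendrocyte identity genes showed no common direction. Of 21 precursor markers tested, 6 were higher and 4 lower without overlap (28.6% and 19%, against 10.1% and 24.2% of all genes), with a median of 0.05. Gpr17, a receptor of precursors about to differentiate, was at 9.81 and 9.43 TPM alone and at 7.42 and 6.73 TPM with MB1. Lhfpl3 was at 9.92 and 9.63 TPM alone and at 20.1 and 13.9 TPM with MB1, and MB1 cells had 41.0 and 21.1 TPM. For the 15 lineage factors the median was -0.05, or 0.01 with median-ratio scaling, and 3 were higher and 4 lower without overlap (20% and 26.7%). For the 18 myelin genes it was 0.04, or -0.05 without monoculture library 2, and 6 were higher and 4 lower without overlap (33.3% and 22.2%). Mbp, myelin basic protein, overlapped, at 68.3 and 76.2 TPM alone and 62.4 and 70.9 TPM with MB1.

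Markers of other cell types were read by list. Of 28 granule neuron and MB1 markers, 8 were tested; the sum over the list was 72.1 and 66.5 TPM alone, 81.7 and 58.9 TPM with MB1, and 249 and 215 TPM in MB1 cells. Zic4 and Barhl2, which MB1 cells expressed, were at 0 in all 4 Oli-neu libraries, and Zic1 reached no more than 0.0322 TPM, in co-culture library 2. Of 22 markers of microglia, vessels and fibroblasts, 2 were tested, and the sum over the list was between 2.50 and 5.75 TPM in the 4 libraries. Of 22 neuron markers, 4 were tested, with a median fold change of -0.19. Gap43 and Gad1 were lower without overlap and Map2 and Syt1 overlapped, and the sum over the list was 129 and 115 TPM alone and 110.2 and 90.9 TPM with MB1. The 17 tested astrocyte markers had a median of 0.06, with 3 higher and 4 lower without overlap (17.6% and 23.5%, against 10.1% and 24.2% of all genes). The sum over the astrocyte list was 4120 and 3543 TPM with MB1. Within number 1 their median was -0.04 and within number 2 it was 0.03. The part of these cell types in the results was not tested.

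Mitochondrially encoded transcripts were higher beside MB1 but differed between library numbers. All 13 had a higher mean (37.2% of all genes did), 9 were higher without overlap (69.2%, against 10.1% of all genes), and the median fold change was 0.52, with 0.90 within number 1 and 0.25 within number 2. Without monoculture library 1 the median was 0.38, and without monoculture library 2 it was 0.99. Beside D341, against the same monocultures, the median was 0.47, and for MB1 minus D341 co-culture it was 0.07. These transcripts made up 1.93% and 4.002% of TPM alone and 3.28% and 4.53% with MB1, so monoculture library 1 was the low one. mt-Co3, a subunit of cytochrome oxidase, was at 1594 and 1988 TPM alone and at 3113 and 2897 TPM with MB1. mt-Nd6 was at 38.6 and 815 TPM alone and at 35.8 and 1222 TPM with MB1, a difference between numbers far above that between conditions.

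**Figure D4:**
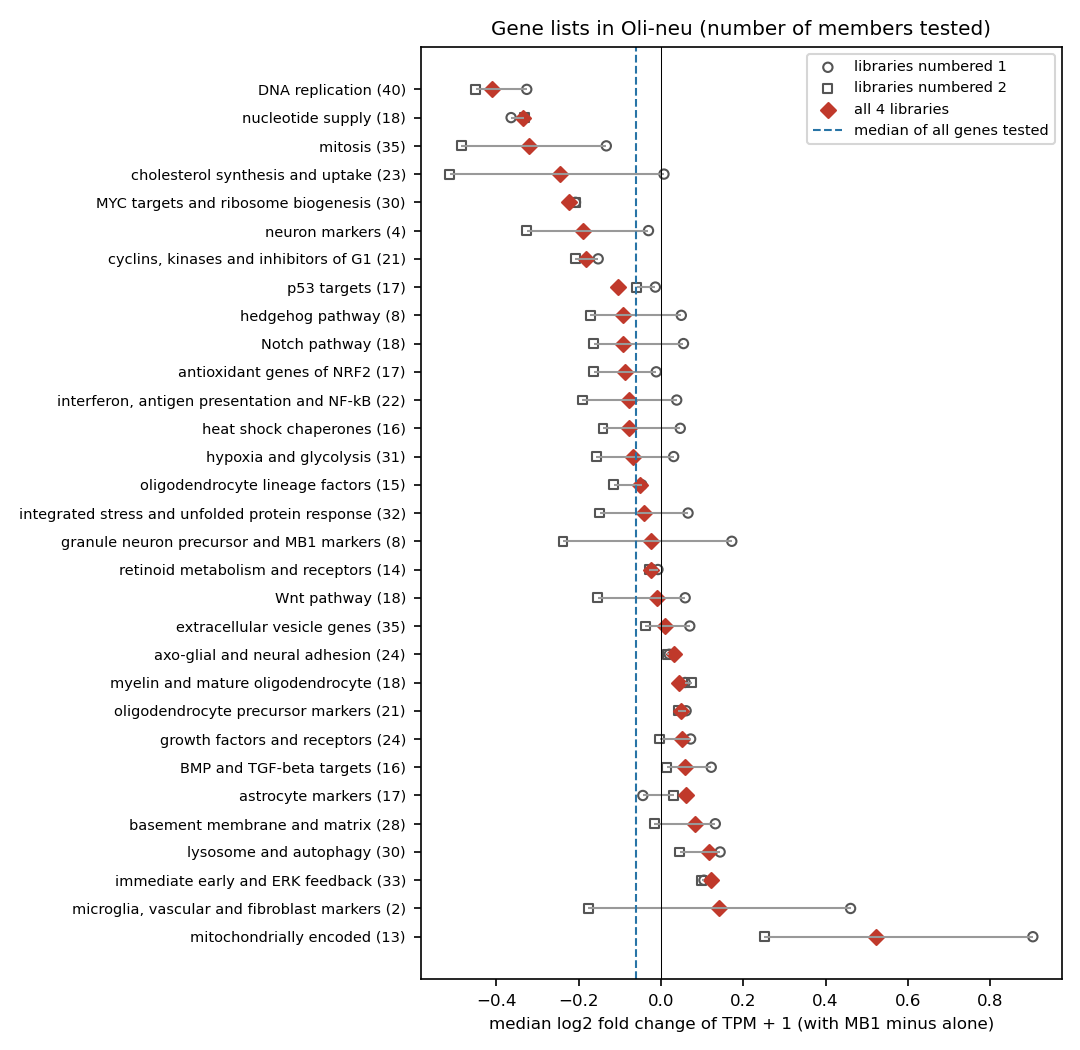
Median log2 fold change of TPM + 1, Oli-neu with MB1 minus alone, of each of the 31 gene lists, with the number of members tested in brackets. Red diamonds are the medians over the 4 libraries, open circles and squares those within numbers 1 and 2, and the dashed line is the median of all genes. Replication, nucleotide supply and mitosis have the lowest medians, mitochondrially encoded genes the highest, and most other lists lie near the dashed line.

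The study's title names extracellular vesicles, and the 35 tested genes of vesicle formation and cargo had a median of 0.01. Of these, 5 were higher without overlap (14.3%, against 10.1% of all genes) and 6 lower (17.1%, against 24.2%). With an unadjusted p under 0.05, 1 was lower (2.86%, against 4.75%) and 0 were higher. The median was -0.09 without co-culture library 1 and 0.07 without co-culture library 2.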

How the data were processed

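Poly(A)-selected RNA was sequenced with a directional kit over 75 cycles, per the labels. The authors deposited TPM per gene. Their aligner settings and annotation release are not given in the sources used here. The submitters' processing notes name Salmon 0.14.1, FastQC 0.11.8, MultiQC 1.7 and DESeq2 1.22.2. Each column sums to 1000000 TPM, and without counts the depth, and hence counting error, is unknown.

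Genes reaching 1 TPM in 2 or more of the 4 libraries were analysed as log2(TPM + 1), which understates changes of low genes, with limma 3.58.1 (R 4.3.3, mean-variance trend, two-sided). The 6 Oli-neu libraries shared 1 fit, with Benjamini-Hochberg adjustment over 12036 genes. Symbols and positions came from GENCODE M21 (GRCm38), which matched 35028 of 35288 identifiers. The fit was tested on simulated data without an effect of the library number. That test cannot show how the fit behaves where the numbers differ, as they did here. Libraries of the same number deviated together (r of 0.646, 0.622 and 0.645 between conditions), so a fit with the number as a block was run.

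Named were the 14 protein-coding genes in each direction with the smallest p among those with a proper symbol, without overlap, with at least 5 TPM in a group and the same direction in both numbers, and up to 4 per list. Other genes were named after their values were seen. The members and the 31 lists were chosen with earlier results of these data known. In all, 16 planned and 4 added alternatives were tried.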

Additional observations from a re-analysis of the deposited data

How the results depend on the processing

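Counts of genes moved with the processing, from 0 called to at most 6. The number called was 3 with a pseudocount of 0.1 TPM, 1 without the filter, 2 with median-ratio scaling, 2 without mitochondrially encoded genes, 2 with protein-coding genes alone, 1 without the trend, 2 with the robust trend and 3 with the block in the fit of the 4 libraries. Among alternatives chosen after seeing the data, it was 2 with the block and median-ratio scaling, 6 with the block and protein-coding genes, and 2 without genes that overlap exons on the other strand. It was 0 with each library left out in turn. Genes higher and lower at an unadjusted p under 0.05 numbered 356 and 865 without the filter, 338 and 369 with median-ratio scaling, 345 and 974 with the replicate block, 299 and 789 with the block in 4 libraries, 577 and 631 with the block and median-ratio scaling, and 409 and 938 with the block and protein-coding genes. Leaving out 1 library gave 126 to 293 higher and 297 to 598 lower. The lowest count of lower genes, 297, was without monoculture library 1, followed by 348 without monoculture library 2, and the highest count of higher genes, 293, was without co-culture library 2. With the replicate block alone in the fit of the 6 libraries, the number called stayed at 0.

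Dhrs3 had a limma adjusted p under 0.05 in 8 of the 20 alternatives, between 0.00626 with the block and protein-coding genes and 0.0440 with the block and median-ratio scaling, and up to 0.394 without co-culture library 1. Pdgfra, near 0, was 0.0585 with median-ratio scaling with or without the block, 0.0128 without mitochondrially encoded genes and 0.0166 with protein-coding genes with or without the block. With 1 library left out, Pdgfra ranged from -0.0750 to 0.0746 and mt-Nd6 from -2.29 to 2.77. The cause of these moves was not tested. The TPM tables carry no depth, and 2 libraries a group leave few degrees of freedom.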

Other observations

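Genes of cholesterol synthesis and uptake were lower on average beside MB1, with a median log2 fold change of -0.25 over 23 tested genes. Of these, 22 had a lower mean (62.8% of all genes did). The median was 0.01 within number 1 and -0.51 within number 2, and 9 genes were lower without overlap (39.1%, against 24.2% of all genes), with 1 lower at an unadjusted p under 0.05 (4.35%, against 4.75%). It was -0.11 without co-culture library 2 and -0.40 without co-culture library 1. Beside D341 the median was -0.25, and for MB1 minus D341 co-culture it was 0.01. Pmvk, a kinase of the mevalonate pathway, was at 25.5 and 22.4 TPM alone and at 18.9 and 19.2 TPM with MB1. Lysosome and autophagy genes had a median of 0.12 over 30 tested genes, with 8 higher and 1 lower without overlap (26.7% and 3.33%, against 10.1% and 24.2% of all genes) and 0 at an unadjusted p under 0.05, and the median was 0.02 without co-culture library 1. Lama4, a laminin chain of basement membranes, was at 46.4 and 51.1 TPM alone, 68.8 and 67.8 TPM with MB1 and 77.9 and 68.0 TPM with D341. The receptor kinase gene Kit was at 21.7 and 22.8 TPM alone, 17.1 and 17.1 TPM with MB1 and 11.8 and 11.7 TPM with D341.

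Some genes were listed at 0 in a whole condition, which in TPM can be a failed estimate. Among genes tested, 16 were listed at 0 in both monoculture libraries, 13 of them pseudogenes, and 13 were listed at 0 in both libraries with MB1, 12 of them pseudogenes. Gm10985 was listed at 0 in both monocultures and both D341 co-cultures and at 6.38 and 5.27 TPM with MB1.

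The libraries numbered 2 differed from those numbered 1 at 487 genes in the fit with the block (limma adjusted p under 0.05, 4.05% of genes tested), 294 higher and 193 lower in number 2. Lrrc17 was at 0.126 and 187 TPM in monocultures 1 and 2 and at 0.0553 and 233 TPM in co-cultures 1 and 2, and Irf5 was at 0.118 and 25.4 TPM in the monocultures. An exon overlap with a gene on the other strand was present in 32.0% of the 487 genes, in 38.8% of those higher and 21.8% of those lower in number 2, and in 29.7% of all genes tested. The part of strand handling in these differences was not tested.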
